A study of Mus musculus with 8 samples.

Results

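Of 49587 regions of open chromatin recorded across 8 libraries of fasted mouse liver, 1333 (2.69%) carried a peak in both Cpt2 knockout libraries and in none of the other 6 libraries. These regions are called Cpt2-knockout-only below. They were chosen by the peak calls themselves: at least 1 bp of a consensus region had to be covered by a peak in each Cpt2 knockout list, and no peak of the 6 other lists could touch it. The presence, strength and width of their peaks are therefore given as descriptions and were not tested.

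The livers came from 9-week-old male C57BL/6 mice that had been fasted for 24 h, a treatment shared by every group. There were 2 libraries each of wild type, of Cpt2 liver knockout (Cpt2 L-/-), of Ppara knockout (Ppara -/-) and of the double knockout Cpt2 L-/-;Ppara -/-. The labels name neither the Cre line behind the liver knockout nor whether 2 libraries of a genotype came from separate mice, so agreement between 2 libraries may be partly technical. Open chromatin was profiled by ATAC-seq on whole flash-frozen liver, in which a transposase inserts adapters into accessible DNA, and the reads pile up as peaks.

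Cpt2 is the inner-membrane carnitine palmitoyltransferase that releases long-chain acyl-CoA into the mitochondrial matrix for beta-oxidation. Fasted liver depends on this step to burn fatty acids from adipose tissue and to make ketone bodies. Ppara, a nuclear receptor activated by fatty acids, switches on the genes of fatty acid oxidation in the same state. Enhancers and promoters in use are usually accessible to the transposase, and an accessible site far from a gene is often an enhancer, although accessibility alone does not name the gene it acts on.

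The bases under these regions could be read where a region overlapped a 300-base promoter window of RefSeq (GRCm38.p6, the assembly of mm10), which runs from 250 bases before to 50 bases after a gene's start. This was so for 59 of the 1333 regions (4.43%), and 34 of them overlapped the window of a protein-coding gene. The windows below are those of Insig2, an endoplasmic reticulum protein that restrains sterol-regulated transcription, of Habp2, a plasma serine protease made in liver, of Ufd1, a cofactor in the extraction of ubiquitinated proteins, and of Osmr, a receptor subunit for oncostatin M. In each, the region covered at least 200 bases of the window, and its peaks ranked high among such regions at protein-coding genes. The choice was made after the values were seen and left out E030018B13Rik, which ranked above Ufd1 and Osmr. Each window runs 5′ to 3′ on the gene's strand with the bases inside the region in capitals. Insig2 is chr1:121332540-121332839 on the minus strand, Habp2 is chr19:56287662-56287961 on the plus strand, Ufd1 is chr16:18812044-18812343 on the plus strand and Osmr is chr15:6874264-6874563 on the minus strand.
Insig2: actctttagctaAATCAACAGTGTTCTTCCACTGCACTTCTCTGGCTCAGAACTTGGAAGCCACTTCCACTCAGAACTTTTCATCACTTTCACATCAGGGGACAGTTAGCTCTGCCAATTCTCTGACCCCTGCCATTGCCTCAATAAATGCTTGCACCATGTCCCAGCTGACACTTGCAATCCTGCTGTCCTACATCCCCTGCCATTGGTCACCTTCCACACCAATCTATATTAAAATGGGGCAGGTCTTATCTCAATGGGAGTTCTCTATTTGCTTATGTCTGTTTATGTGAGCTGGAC
Habp2: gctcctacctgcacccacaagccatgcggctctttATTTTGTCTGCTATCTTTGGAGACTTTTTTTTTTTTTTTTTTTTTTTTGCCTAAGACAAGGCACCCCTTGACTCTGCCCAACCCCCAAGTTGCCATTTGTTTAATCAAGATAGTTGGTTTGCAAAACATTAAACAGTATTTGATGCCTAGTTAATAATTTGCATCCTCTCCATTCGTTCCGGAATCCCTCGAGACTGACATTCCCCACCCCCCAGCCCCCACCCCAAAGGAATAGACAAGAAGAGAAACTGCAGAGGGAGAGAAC
Ufd1: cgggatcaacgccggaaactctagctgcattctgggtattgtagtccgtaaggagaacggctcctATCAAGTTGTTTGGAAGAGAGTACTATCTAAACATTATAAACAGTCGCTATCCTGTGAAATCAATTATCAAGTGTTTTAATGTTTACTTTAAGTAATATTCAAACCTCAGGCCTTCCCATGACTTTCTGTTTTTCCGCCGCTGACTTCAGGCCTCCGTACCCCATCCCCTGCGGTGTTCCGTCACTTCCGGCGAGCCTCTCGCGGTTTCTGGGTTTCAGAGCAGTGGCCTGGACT
Osmr: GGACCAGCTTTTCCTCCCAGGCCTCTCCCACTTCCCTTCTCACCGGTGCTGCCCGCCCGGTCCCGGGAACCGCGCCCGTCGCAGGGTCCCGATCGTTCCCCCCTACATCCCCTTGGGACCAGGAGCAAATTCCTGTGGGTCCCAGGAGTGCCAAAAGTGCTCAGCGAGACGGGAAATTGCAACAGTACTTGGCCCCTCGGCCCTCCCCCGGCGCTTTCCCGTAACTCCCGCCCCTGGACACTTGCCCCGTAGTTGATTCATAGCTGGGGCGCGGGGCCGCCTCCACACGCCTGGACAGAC

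In Insig2 the region held 288 of the 300 bases and in Osmr all 300, so the called open site spanned the start of either gene. The region at Ufd1 began inside the window, with 235 bases in it, and the nearest summit lay 2 bp from the gene's start. At Habp2 265 bases of the window were inside the region. The 4 windows had a GC content of 46%, 44.3%, 47.7% and 66% in the order printed, and the median over the 59 windows was 51%. Windows under regions private to the 5 other pairs of wild type and Cpt2 knockout libraries, the Ppara-intact ones, were richer in GC, with a median of 60.7% over 243 windows, as were 5241 windows under regions called in all 8 libraries, at 62.7%. The median of all 32817 promoter windows was 52.7%.

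For a description of their sequence, the windows were searched on both strands for 10 motifs, with 1 window per region. The AP-1-like letters TGANTCA were in 9 of 59 windows (15.3%), against 15 of 243 (6.17%) under regions private to the other Ppara-intact pairs and 7.81% of all promoter windows. The form with C or G in the middle (TGACTCA on either strand), the classical site of Fos and Jun dimers, was in 6 of the 9 (10.2% of the 59 windows, against 4.12% and 5.20%), and 3 windows had A or T there. The forkhead element TGTTTAC was in 6 of 59 (10.2%), against 3.70% and 3.65%, and the GATA element AGATAA in 10 of 59 (16.9%), against 7.0% and 11.2%. These shares rest on few windows and were not tested. The ETS element CCGGAA was in 9 (15.3%), against 15.2% and 14.9%, the NRF2 element TGACNNNGC in 11 (18.6%), against 17.3% and 12.4%, and AGGTCA, the core site of nuclear receptors, in 8 (13.6%), against 17.3% and 16.3%. The cAMP response element TGACGTCA was in 1 window. Neither the direct repeat of AGGTCA with 1 free base between the copies, which PPAR and RXR dimers bind and which also contains the core site, nor TTGCGCAA of C/EBP nor the CTCF core was found in the 59 windows. A missing match says only that these letters are not in these windows.

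In 6 of the 9 windows with TGANTCA, the match lay inside the called region. The stretches below give the 5 at protein-coding genes with 20 bases on either side and the match in capitals, and show that the shared letters sit in unlike surroundings. Those of Osmr and Islr2 have T or A in the middle, and the others have the classical form. The matches outside a called region, in windows of the non-coding genes Mir670hg, Gm34629 and Gm13025, all had the classical form too. Agpat4 encodes an acyltransferase of phospholipid synthesis and Entpd2 an ectonucleotidase. The stretches are chr15:6874284-6874330 (minus strand) for Osmr, chr7:29248492-29248538 (minus) for 2200002D01Rik, chr17:12119124-12119170 (plus) for Agpat4, chr9:58204299-58204345 (minus) for Islr2 and chr2:25395755-25395801 (plus) for Entpd2.
Osmr: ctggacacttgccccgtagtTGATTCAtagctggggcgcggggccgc
2200002D01Rik: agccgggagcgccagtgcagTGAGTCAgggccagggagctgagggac
Agpat4: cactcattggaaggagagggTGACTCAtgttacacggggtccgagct
Islr2: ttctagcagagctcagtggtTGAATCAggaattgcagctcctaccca
Entpd2: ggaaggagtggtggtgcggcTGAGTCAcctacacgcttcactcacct

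Before the regions are described further, the lists they come from need a comparison. Per library, wild type had 28733 and 36141 peaks, Cpt2 knockout 39296 and 35908, Ppara knockout 20340 and 18283, and double knockout 22715 and 18132. The list of Cpt2 knockout 1 was thus the longest, and the 4 lists from Ppara-null livers (Ppara knockout and double knockout) were shorter than the 4 from Ppara-intact livers (wild type and Cpt2 knockout). Totals of sequenced reads are not given, but the lowest local background against which a peak was scored, solved from the deposited fold and p, was 4.10 tags in each of the 8 libraries. The product of tag number and extension length used for calling was therefore equal in all 8. This product does not give the number of tags itself, and the cause of the unequal list lengths was not tested. The Cpt2 gene itself could not serve as a check of the labels: its end region was called in all 8 libraries, an inner region at chr4:107921928-107922335 in the 4 Ppara-intact ones, and none of its 3 regions was Cpt2-knockout-only. Of the 25 regions assigned to Ppara, 0 were.

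The Cpt2 knockout pair had more private regions than any other pair of libraries of 1 genotype. Wild type had 188 (0.379% of consensus regions), double knockout 123 (0.248%) and Ppara knockout 32 (0.0645%). Pairs of mixed genotype are the background for this count, and 1 of them exceeded it: wild type 2 and Cpt2 knockout 1 shared 1761 private regions. The Cpt2 knockout pair thus ranked 2 of 28 pairs, ahead of wild type 2 with Cpt2 knockout 2 at 814 and wild type 1 with Cpt2 knockout 1 at 403. The 27 other pairs had a median of 49 and a range of 13 to 1761.

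The rank depended on the length of the lists. When each list was limited to its strongest 18132 peaks, the length of the shortest, the Cpt2 knockout pair had 140 private regions (0.282%) and ranked 10 of 28. The double knockout pair then came first with 361 and the Ppara knockout pair next with 253. Only 3 of the 1333 regions were among those 140, namely those nearest Sp3, Erg28 and Wasl. The others had no peak left in at least 1 of the shortened Cpt2 knockout lists. With a −log10 q of at least 20 asked of every list, the pair had 908 private regions (1.83%) and wild type 2 with Cpt2 knockout 1 had 2021. Only 103 of the 1333 regions were among those 908. The others of the 908 had a weaker peak in another library's full list. With full lists, the rule gave 3824 regions without wild type 2, and 3867 or 4915 with Cpt2 knockout 1 or 2 left out. Leaving out a library removes a condition of the rule, so these counts could only rise. The added regions were the 2491 that wild type 2 alone had kept out, and the 2534 or 3582 called in a single Cpt2 knockout library.

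**Figure D1:**
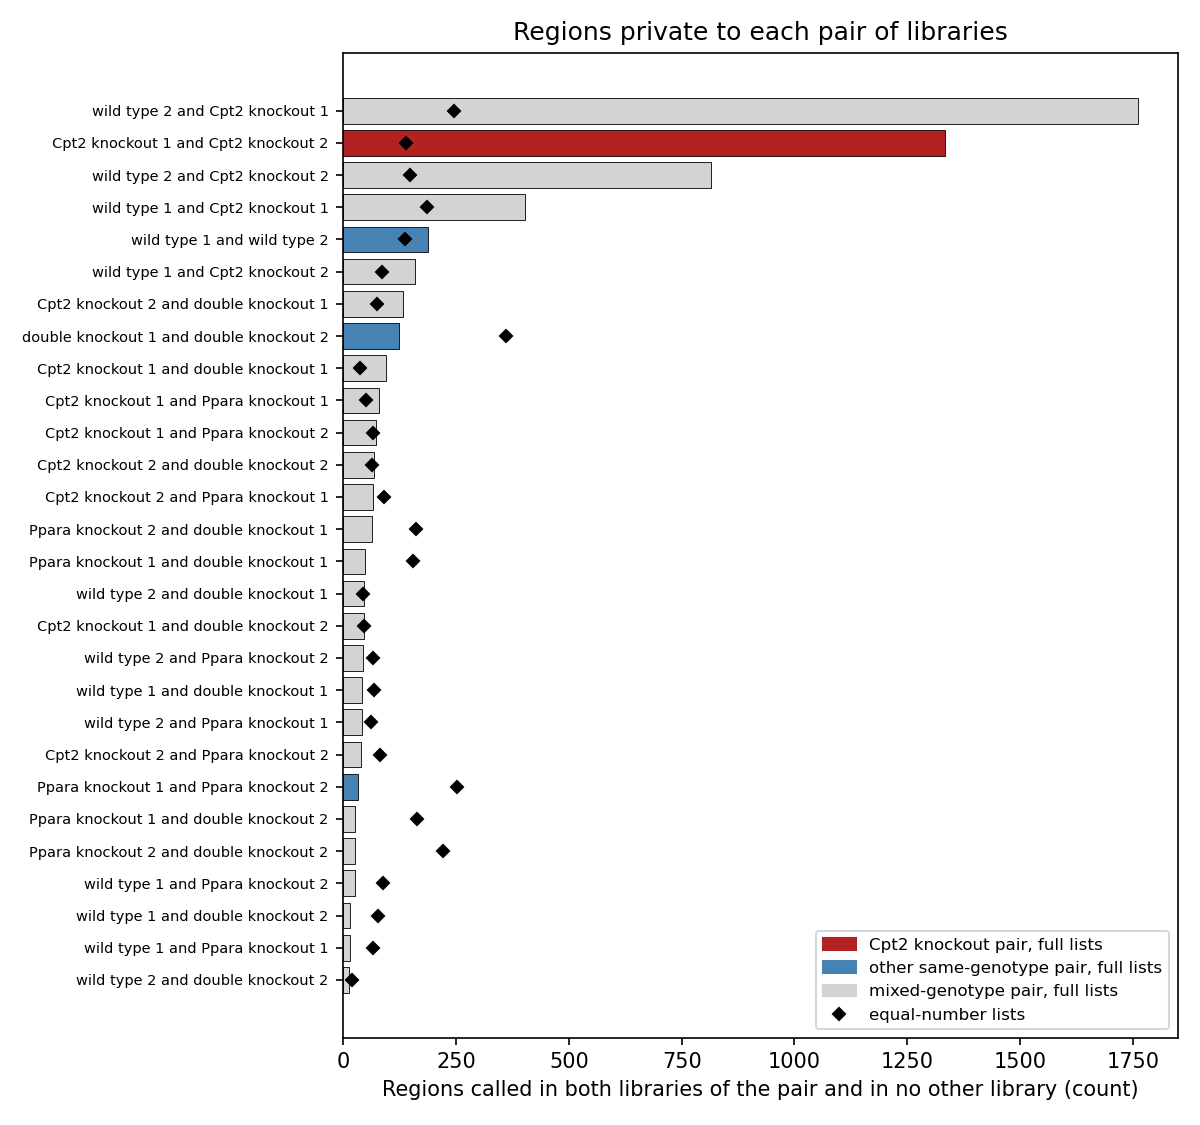
Number of consensus regions called in both libraries of a pair and in no other library (horizontal axis, count) for the 28 pairs, as bars for the full lists and black diamonds for equal-number lists of 18132 peaks. The Cpt2 knockout pair (red) stood at 1333 with full lists, below wild type 2 with Cpt2 knockout 1 at 1761, and at 140 in equal-number lists.

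The plot of private regions by pair shows that the 4 longest full-list bars all joined 2 of the 4 Ppara-intact libraries, and that all but 1 of these were mixed pairs. The number of regions shared by both Cpt2 knockout libraries in any company was 30690. Of these, 11258 (36.7%) were called in all 6 other libraries too, 3106 (10.1%) in exactly 1 other, and the 1333 (4.34%) in no other. Where exactly 1 other library called the region, that library was wild type 2 for 2491 of the 3106 and wild type 1 for 372. The Ppara-null libraries accounted for 43 to 88 each.

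The peaks of the Cpt2-knockout-only regions were weak within their own lists. Their −log10 p, the authors' peak score against local background, ran from 8.78 to 64.8 with a median of 17.1 in Cpt2 knockout 1, and from 8.54 to 60.8 with a median of 16.1 in Cpt2 knockout 2. The medians of the whole lists were 34.5 and 32.2. The pileup at the summit, solved from the deposited p and fold, was a median of 35 tags in each library, and the median fold over local background was 5.41 and 5.25.

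Expressed as the percentile of a peak among its own list by −log10 p, the mean over both libraries had a median of 18.6 and ranged from 0.522 to 67.2. Peaks of 7 regions lay above the 50th percentile in both lists, those of 80 in 1 list, and those of 1246 (93.5%) in neither. In the 27 other pairs the median percentile of private regions ran from 6.80 to 28.6, so low strength was shared by private regions of every pair. Neither knockout library was the stronger one as a rule: 671 regions ranked higher in Cpt2 knockout 1 and 662 in Cpt2 knockout 2.

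**Figure D2:**
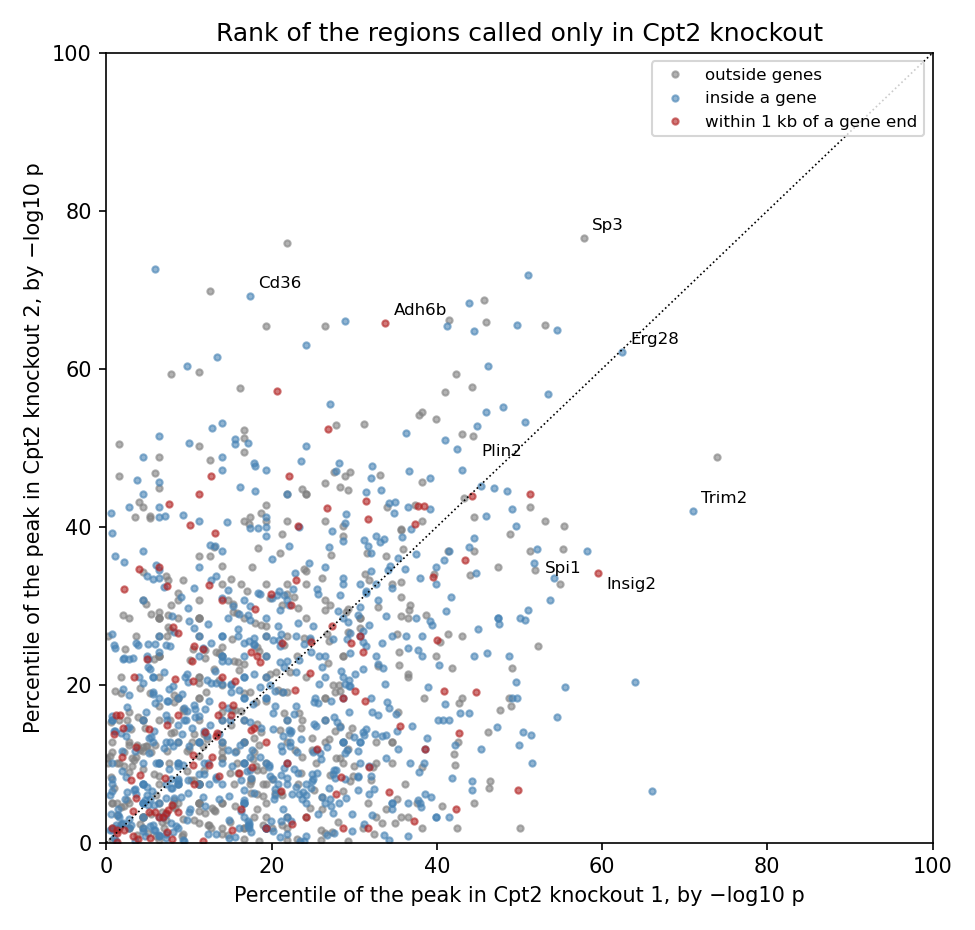
Percentile of each of the 1333 regions' peaks among all peaks of its list by −log10 p, in Cpt2 knockout 1 (horizontal) and Cpt2 knockout 2 (vertical), 1 point per region, coloured by position relative to protein-coding genes, with the dotted line marking equal percentiles. Most points lie in the lower left, and 7 lie above 50 on both axes.

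The plot of percentiles spreads on both sides of the line of equal rank, with single regions high in 1 list and low in the other. The median distance between the 2 summits of a region was 35 bp, 875 regions (65.6%) had them within 50 bp, and 26 had them over 200 bp apart. This closeness was ordinary for private regions, since the medians of the 27 other pairs ran from 23 to 66 bp around a median of 39 bp, with 24 bp for wild type 2 and Cpt2 knockout 1. The regions were narrow, with a median width of 309 bp and a range of 203 to 849 bp, and covered 431803 bp in all. Private regions of the other pairs had median widths of 280 to 342 bp.

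Most Cpt2-knockout-only regions lay away from gene ends. Within 1 kb of either end of a protein-coding gene were 130 (9.75%), a further 686 (51.5%) lay inside a gene, and 517 (38.8%) lay outside genes. Regions private to the 5 other Ppara-intact pairs lay at gene ends in 15.4% of 3326 cases, all consensus regions in 26.0%, and regions called in all 8 libraries in 52.0%. Between single Ppara-intact pairs the share ran from 11.3% to 39.9%, so the Cpt2 knockout pair was below each of these 5. Over all 27 other pairs, some with few regions, it ran from 0% to 40%.

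The median distance to the nearest gene end was 17683 bp, with quartiles of 5179 and 50305 bp. It was 13742.5 bp for the other Ppara-intact pairs and 9391 bp for all consensus regions. Over the 27 other pairs taken singly the median ran from 3094 to 33808 bp. Among the other same-genotype pairs it was 23694 bp for double knockout, 19492.5 bp for Ppara knockout and 3949.5 bp for wild type. Farther than 100 kb from any gene end were 163 regions (12.2%), against 9.80% for the other Ppara-intact pairs and 9.49% of all consensus regions. The nearest other consensus region was a median of 6248 bp away, compared with 4317.5 bp for the other Ppara-intact pairs, and it lay within 1 kb for 16.5% against 24.8%.

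**Figure D3:**
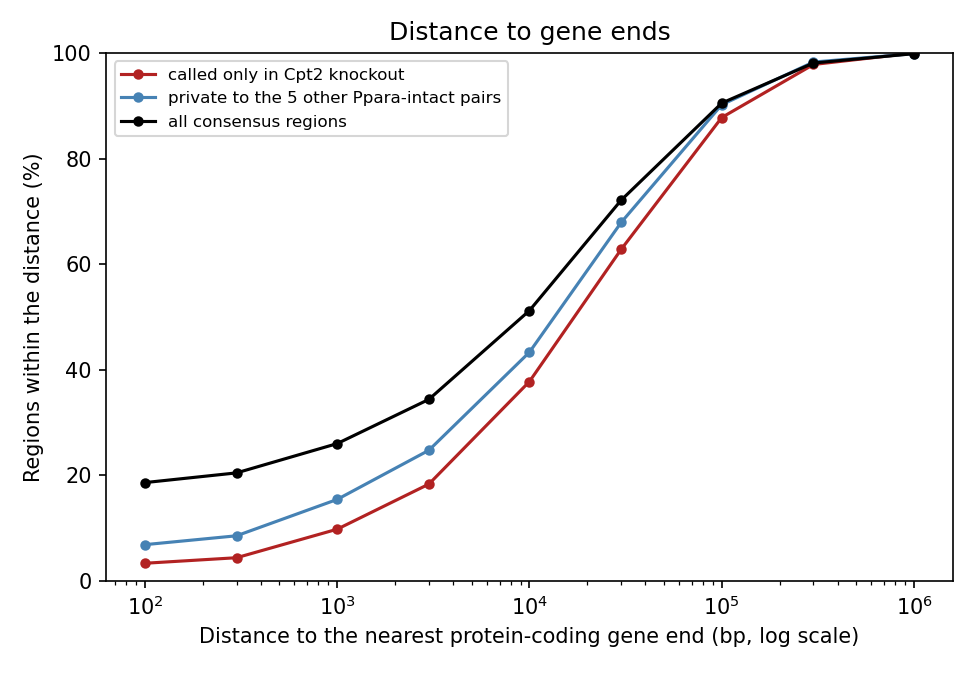
Cumulative share of regions (vertical axis, %) lying within a given distance of the nearest protein-coding gene end (horizontal axis, bp, log scale), for the 1333 regions, the 3326 regions private to the 5 other Ppara-intact pairs and all 49587 consensus regions. The Cpt2-knockout-only curve lies lowest up to 100 kb, at 37.7% within 10000 bp against 43.3% and 51.2%.

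In the curves of distance the 3 sets came together only far from genes, where 97.8%, 98.3% and 98.1% lay within 300000 bp. Since the regions of a pair are no replicates of a condition, this order is given without a test.

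The strongest region lay outside genes, 182111 bp from Sp3, a transcription factor of GC boxes, at chr2:72753916-72754318, with a −log10 p of 41.9 in Cpt2 knockout 1 and 60.8 in Cpt2 knockout 2 and a fold of 8.07 and 10.4. Next came a region inside Erg28, a scaffold of sterol synthesis enzymes, at chr12:85817710-85818084, with 47.3 and 42.5. It lay 351 bp from a second region of the gene, which was called in wild type 2 and Cpt2 knockout 2, so that neighbouring open sites of 1 gene differed in their calls. Inside Eya3, a phosphatase and coactivator of transcription, the region chr4:132647468-132647813 had 35.5 and 53.7.

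Regions nearest Sox5, Wasl, Eepd1, Mrpl17, Pigz, Trim2, Iqsec1, Ctla4 and Zscan2 completed the 12 of highest mean percentile, which ran down to 55.1. The one inside Wasl, the N-WASP activator of actin branching, was at chr6:24661901-24662223, had −log10 p of 38.7 and 45.2, and was among those that persisted in equal-number lists. The one inside Trim2, a ubiquitin ligase, showed how far the 2 libraries could part, at 59.5 in Cpt2 knockout 1 and 26.95 in Cpt2 knockout 2. None of the 12 lay at a gene end: 7 were inside genes and 5 outside.

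At gene ends the strongest regions included those of Adh6b, Zfp182, Insig2, Zfp467 and Hcar2. Adh6b encodes an alcohol dehydrogenase, and its region, 48 bp from the gene at chr3:138358908-138359215, had −log10 p of 23.7 and 46.2. At the end of Zfp182, a zinc finger gene on the X chromosome, chrX:21061904-21062235 had 35.6 and 28.2 and was the only region assigned to the gene. The Insig2 promoter region, whose bases are printed above, had 44.0 and 22.9 and the highest pileup of the 1333 regions in Cpt2 knockout 1, 120 tags.

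Hcar2 encodes the receptor for the ketone body beta-hydroxybutyrate, and its region at chr5:123862611-123862930 lay 639 bp from the gene. It had −log10 p of 26.2 and 27.2 and was about equally strong in both libraries. Both values were below the medians of their lists.

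Genes of lipid droplets and fatty acid uptake had 6 Cpt2-knockout-only regions among their 105 regions (5.71%), against 2.69% of all regions. The list of 25 genes was counted without a test, and 3 of the 6 regions lay outside genes. Beside Plin2, the coat protein of hepatic lipid droplets, chr4:86671778-86672098 lay 1560 bp from the gene with −log10 p of 30.2 and 33.2. The end region of Plin2 was called in all 8 libraries and the next one outward in 7, so the open site seen only in Cpt2 knockout adjoined sites open in nearly every library.

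Inside Cd36, a fatty acid translocase, the region chr5:17880819-17881156 had −log10 p of 16.8 in Cpt2 knockout 1 and 50.3 in Cpt2 knockout 2, a wide gap between the libraries. It lay 281 bp from a region that wild type 2 shared with both knockout libraries. Fabp2, a fatty acid-binding protein best known from intestine, had 2 of the regions at 15783 and 7077 bp from the gene, with −log10 p of 24.2 and 22.2 for the first and 13.1 and 29.9 for the other. Plin3, another droplet coat protein, and Fitm2, which promotes droplet formation, each had 1 at a gene end.

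**Figure D4:**
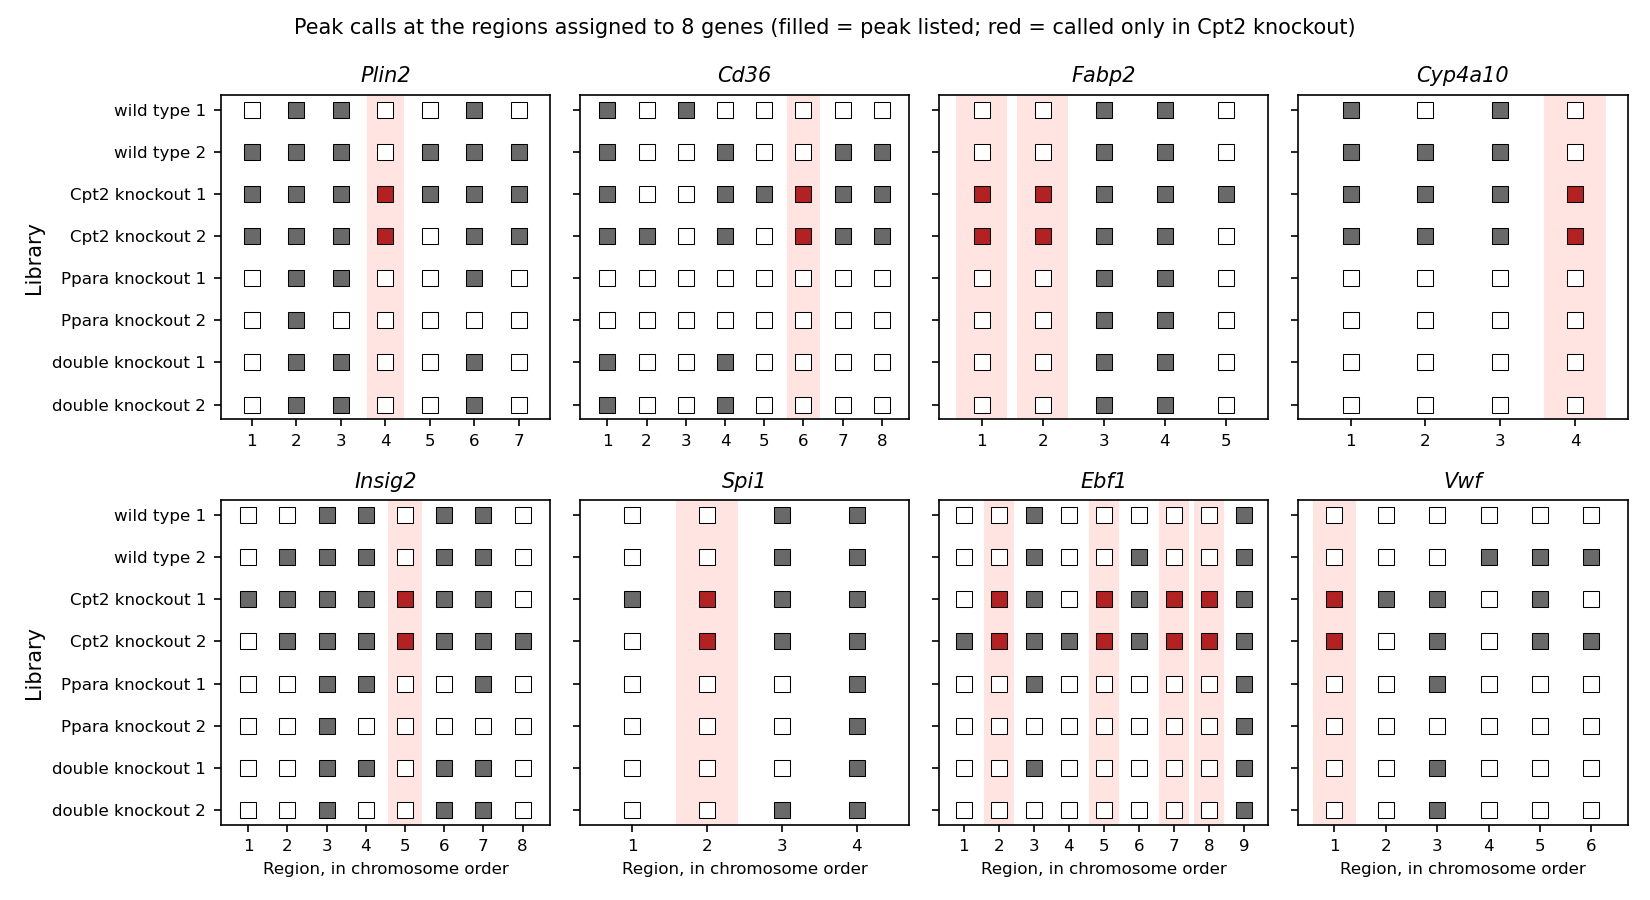
Peak calls in the 8 libraries (rows) at every consensus region assigned to 8 of the named genes (columns, in chromosome order and not to scale), filled where a peak was listed and red where the region was called only in Cpt2 knockout. Plin2, Cd36, Cyp4a10, Insig2, Spi1 and Vwf have 1 such region each, Fabp2 has 2 and Ebf1 has 4.

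In the grid of calls, each of the 8 genes, chosen after their values were seen, also had at least 1 region called more widely. The nearest region was called in all 8 libraries for 20.4% of the 1333 regions and in 1 or 2 for 35.1%. Over all consensus regions these shares were 22.0% and 34.2%. Insig2 had 8 regions, of which Cpt2 knockout libraries called 7 each, wild type 4 and 5, Ppara knockout 3 and 1, and double knockout 4 and 3. At Cyp4a10, an omega-hydroxylase of fatty acids, all 4 regions were called in both Cpt2 knockout libraries and none in any Ppara-null library. Wild type called 2 and 3 of them, and 2 were called in all 4 Ppara-intact libraries. At Fabp2 the end region was called in all 8.

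Ppara target genes had 6 Cpt2-knockout-only regions of 184 (3.26%), close to the 2.69% of all regions. They were nearest Plin2, Acsl1, Acot1, Slc25a20, Cyp4a10 and Cyp4a31. That beside Acsl1, which activates long-chain fatty acids, lay 24725 bp from the gene with −log10 p of 20.8 and 30.1. The region at Slc25a20, the carnitine-acylcarnitine translocase that works next to Cpt2, was weak, at 16.5 and 13.6.

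Genes of mitochondrial fatty acid oxidation and the carnitine shuttle had 3 of 103 (2.91%). Etfb, a subunit of the electron transfer flavoprotein that takes electrons from acyl-CoA dehydrogenases, held one inside the gene with 34.1 and 17.4, and the other genes were Slc25a20 and the carnitine transporter Slc22a5. The share for this pathway was thus also near that of all regions.

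AP-1 and immediate early genes had 9 of 132 (6.82%), against 2.69% of all regions, and all 9 lay outside protein-coding genes. In equal-number lists the genes had 1 private region of the Cpt2 knockout pair, as did the lipid droplet genes and the Ppara targets. For none of these lists was it one of the 1333 regions. Beside Fos, a subunit of AP-1, a region 26024 bp away had −log10 p of 22.3 and 34.5, and a weaker one lay 21829 bp away. The weaker one lay inside the promoter window of the non-coding gene Gm38543. Myc, a growth-associated transcription factor, was the nearest gene to 4 of them, the closest 76839 bp away and the strongest 137434 bp away with 24.7 and 25.6. Myc had 39 assigned regions in a gene-poor stretch, 10 of them called in all 8 libraries, and at such distances the nearest gene may not be the one served. Klf6, Atf3 and Ier3 had 1 each, at 268666, 47129 and 17277 bp from the gene, and the same limit on the nearest gene applies at Klf6.

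Nrf2 antioxidant genes had 5 of 93 (5.38%), with 2 inside Me1, the cytosolic malic enzyme, 2 at Abcc4, an exporter of organic anions, and 1 inside Osgin1. Integrated stress response genes had 2 of 58 (3.45%), beside Atf3 and Cebpb, and the Atf3 region was uneven, with −log10 p of 16.6 and 33.1. Cytoskeleton and cell adhesion genes had 1 of 88 (1.14%), at Tubb6, and cell cycle genes 0 of 51. Hepatocyte transcription factors, among the most densely covered genes with 256 regions, had 2 (0.781%), at Cebpb and at Nr1h4, the bile acid receptor.

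The liver label was checked on marker genes. Of 8 hepatocyte genes, 7 had an end region called in all 8 libraries, and 1 of the 63 regions of these genes (1.59%) was Cpt2-knockout-only, inside Serpina1a. Of 10 endothelial genes, 0 had an end region in all 8 libraries and 7 had none in any, while 5 of their 65 regions (7.69%, against 2.69% of all regions) were Cpt2-knockout-only, and 0 were private to the Cpt2 knockout pair in equal-number lists. These lay at Vwf, Pecam1, Flt1 and Stab2, the last with 2, and the strongest, 14043 bp from Vwf, had −log10 p of 33.4 and 16.6.

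Endothelial marker regions were called most often in the Cpt2 knockout libraries, at 72.3% and 60%, against 30.8% and 50.8% in wild type, 16.9% and 13.8% in Ppara knockout and 20% in either double knockout library. Over all regions, the shares were 77.7% and 71.3%, 56.9% and 71.8%, 39.8% and 35.6%, and 44.5% and 35.5% in the same order. The endothelial shares include the 5 Cpt2-knockout-only regions of 65, which the rule counts in both Cpt2 knockout libraries and in no other. Part of the difference between libraries was therefore fixed by the rule. The calls were 47 and 39 of the 65 regions in Cpt2 knockout and 20 and 33 in wild type. Calls at gene ends were not more frequent in Cpt2 knockout. Of the 10 endothelial genes, 2 and 2 had an end region called in wild type and 2 and 1 in Cpt2 knockout. In Ppara knockout it was 0 and 1, and in either double knockout library 1. The end region of Flt1 was called in both wild type libraries and in neither Cpt2 knockout library. In whole liver, more cells of a type and more open chromatin per cell cannot be told apart, and the part of endothelial cells in the calls was not tested. Kupffer cell and macrophage genes had 1 of 9 regions, inside Spi1, the myeloid factor PU.1, at chr2:91109276-91109625 with 36.4 and 24.2. Stellate cell genes had 0 of 16, cholangiocyte genes 0 of 29 and lymphocyte genes 0 of 7.

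In all, 37 regions were assigned to a gene of these 15 lists, and the other regions were spread thinly. The 1333 regions had 1189 different nearest genes, of which 1065 were nearest to 1 region, 107 to 2 and 17 to 3 or more. Itpr1, an endoplasmic reticulum calcium channel, Ebf1, a transcription factor of B cell and stromal lineages, and Myc had 4 each. For Ebf1 these were 4 of only 9 assigned regions, while for Itpr1 they were 4 of 35. At Ebf1, 3 of the 4 lay 150187 to 170971 bp from the gene, and 2 of those were 803 bp apart.

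Dnah3, an axonemal dynein, had 3 among 7 regions and Adck5 3 among 5, and none of the regions of either gene was called in all 8 libraries. Sox5, Rere, Tcf7l2, Sik3 and Ets1 also had 3 each, out of 18 to 33 regions. The strongest inside Dnah3 had −log10 p of 30.3 and 45.1, and that inside Adck5 32.1 and 28.7.

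A further 3106 regions missed the rule by 1 library. The 2491 kept out by wild type 2 had a peak there at a median percentile of 25.9, and the medians for the 5 other libraries ran from 14.7 to 32.1, around the median of 18.6 for the Cpt2-knockout-only regions in their own lists. Of the 2491, 12 had a higher mean percentile in the Cpt2 knockout lists than the strongest Cpt2-knockout-only region. Just inside the rule, the regions of lowest mean percentile were nearest Zfp366, Pde4a, Cdc14b, Kirrel3 and Rhbdd2, with −log10 p between 8.54 and 10.7 in the Cpt2 knockout libraries. The misses with the weakest excluding peak, chosen for that weakness, were nearest Trim2, Me3 and Lpp, kept out by wild type 1, Nwd2, kept out by Ppara knockout 1, and Lgi3, kept out by wild type 2. The peak that kept each out had a −log10 p of 8.31 to 8.75, and the same regions had 10.0 to 19.3 in the Cpt2 knockout libraries. The lowest −log10 p listed in any library was 7.11 to 7.82, so these peaks stood close to where the lists begin. When a −log10 q of at least 20 was asked of both Cpt2 knockout peaks, 103 of the 1333 regions remained, and 91 of these also had no other library's peak within 500 bp and at least 50% of the region covered.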

How the data were processed

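The authors deposited 1 ATAC-seq peak list per library and a table of consensus region positions. Reads were aligned with BWA to mm10 and peaks called with MACS2 2.1.0, per the submitters' processing notes. Duplicate handling, the Tn5 offset and blacklist filters are not given in the sources used here. Each list gives the authors' score (10 times −log10 p, rounded down), their fold ratio of the summit pileup over local background, −log10 p and −log10 q as deposited, and a summit position. Peaks were called per library. The lists hold no read counts per region, so no model per region was fitted. Read totals are not given, and the equal background floor fixes only the product of tag number and extension length at calling.

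An overlap of 1 bp or more with any of a library's peaks counted as a call. The consensus regions were identical to the merged union of the 8 lists, and bedtools 2.31.1 gave the same 1333 regions. A percentile is a peak's rank by −log10 p within its list, and where a region held several peaks the strongest was used. Tags at the summit were solved from fold and −log10 p. Regions were assigned to the nearest of 21887 protein-coding genes (RefSeq, GRCm38.p6). Gene ends are within 1 kb, and distances count the bases between region and gene. Sequence analysis, meant for whole regions, was limited to promoter windows. Python 3.11.15, NumPy 2.4.6 and pandas 2.3.3 were used, and the search for private regions and the tag solution were tested on simulated data.

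Named regions were the 12 of highest mean percentile, the 6 highest at gene ends, the 2 highest per gene list, genes nearest to 3 or more regions (at most 10), and the 5 weakest and 5 nearest misses; 1 region that the rule names is not reported here. Other regions of a list are named where a count of its regions is given, the windows printed were chosen after their values were seen, and the genes in the grid of calls likewise. The regions and gene lists were chosen with earlier results of these data known. The split of the AP-1 letters by middle base was added after their matches were seen. Alternatives were equal-number lists, a −log10 q of at least 20, 50% cover, a 500 bp margin, a 5 kb gene end, all genes, fold in place of −log10 p, all genes within 50 kb, and leaving out each library.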

Additional observations from a re-analysis of the deposited data

How the results depend on the processing

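In equal-number lists the count of Cpt2-knockout-only regions fell from 1333 to 140, and the rank of the pair went from 2 to 10. The gene-end share was 7.86% and the median width 396.5 bp. The regions assigned to list genes were 3 in place of 37, and none of the 37 was among them. With a −log10 q of at least 20 asked of the Cpt2 knockout lists alone the count was 103. Asked of all lists, it gave 908 regions, most of them not among the 1333. Their median percentile was 45.1 (18.6 with full lists). By deposited fold the median percentile was 26.4. The gene-end share of 9.75% became 24.5% at 5 kb and 16.7% with all annotated genes, where the median distance of 17683 bp became 7582 bp. Counting every gene within 50 kb gave 59 regions for the lists. Leaving out 1 library gave counts of 1376 to 4915, gene-end shares of 9.32% to 13.2%, median percentiles of 14.0 to 24.7 and ranks of 1 to 2. The highest counts came without Cpt2 knockout 2 (4915), Cpt2 knockout 1 (3867) and wild type 2 (3824). The rank without a Cpt2 knockout library could not be given, since the pair no longer exists. The rise of the counts without a library follows from the rule, which then has a condition less. The causes of the other shifts were not tested. No paired analysis was possible because the results come from peak calls with no test. A site with no listed peak may still hold signal under the calling threshold.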

Other observations

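Cpt2-knockout-only regions were found on every chromosome but Y, where 0 of 21 regions qualified. Their share of a chromosome's regions ran from 1.81% on chromosome 10 (46 of 2537) to 3.32% on chromosome 14 (61 of 1838), and was 3.31% on X (25 of 756). Of the 59 regions over promoter windows, 7 were on X, a count given without a background from other regions over promoter windows.

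Few of the regions lay next to each other: 96 neighbouring pairs were within 50 kb, 22 within 10 kb and 2 within 1 kb, at Ebf1 (803 bp apart) and at Adck5 (998 bp apart). The nearest consensus region of any kind was one called in all 8 libraries for 20.4% of the regions, against 22.4% for those private to the other Ppara-intact pairs and 22.0% over all regions. Regions private to 1 Cpt2 knockout library alone numbered 3582 and 2534, more than the 1333 they shared.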
